A study of Mus musculus with 57 samples.

Results

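The genes followed here were 10 genes of the surfactant system and of the distal lung epithelium, namely *Sftpc*, *Sftpb*, *Sftpa1*, *Sftpd*, *Abca3*, *Lamp3*, *Nkx2-1*, *Id2*, *Lpcat1* and *Slc34a2*. They were taken by name, not by their values, and all 10 were found among the 56860 genes of the count and TPM tables. TPM is a read count divided by the counted length of the gene and then brought to a common sum per library, which allows genes to be compared. Tissues were collected from wild-type (wt) mouse embryos and from *Hoxa5*-/- embryos homozygous for the null allele *Hoxa5*tm1Rob, all in the 129/Sv background. The null allele carries a *neomycin* cassette in the homeobox, which leaves *Hoxa5* exons that can still yield reads. Lung was sampled at E12.5 and E15.5 (embryonic day), trachea and diaphragm at E15.5, and somites at E12.5, with 4 libraries per genotype. There were 4 wt and 3 *Hoxa5*-/- libraries of E10.5 somites, and 5 of each genotype for E18.5 brown fat from between the shoulder blades (iBAT). The libraries of a group were biological replicates, for wt 1 per embryo by the number of embryos given. Whether libraries of different tissues with the same number came from the same embryo is not stated. Trachea, lung and diaphragm came from one sequencing centre and somites and iBAT from another, and a difference in level between those sets cannot be told apart from the centre. Lung libraries held from 20552280 to 72991481 counts.

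Pulmonary surfactant is a film of phospholipids and proteins that lowers surface tension in the alveoli and is made by alveolar type 2 cells. Its small hydrophobic proteins are matured and packed with lipid in lamellar bodies, which are then secreted, while the collagen-like surfactant proteins act mainly in host defence. In the mouse embryo the distal tips of the branching epithelium express *Nkx2-1* and *Id2*, and genes of the surfactant system come on as these cells mature toward birth.

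Among the secreted surfactant proteins, *Sftpc* (ENSMUSG00000022097.5, chr14:70758389-70761521 on the minus strand of GRCm39) and *Sftpb* (chr6:72281594-72291354, plus strand) code for the hydrophobic proteins SP-C and SP-B. *Sftpa1* (chr14:40853739-40858409, plus strand) and *Sftpd* (chr14:40894171-40907106, minus strand) code for the collagen-like proteins SP-A and SP-D. *Abca3* (chr17:24570924-24629175, plus strand) is the lipid transporter of lamellar bodies, *Lamp3* (chr16:19472128-19525125, minus strand) a membrane protein of lamellar bodies and lysosomes, *Lpcat1* (chr13:73615316-73664541, plus strand) an enzyme that remodels phosphatidylcholine, and *Slc34a2* (chr5:53195423-53229006, plus strand) a phosphate transporter of type 2 cells. *Nkx2-1* (chr12:56578743-56583693, minus strand) is the transcription factor that specifies lung and thyroid endoderm, and *Id2* (chr12:25143798-25147139, minus strand) an inhibitor of basic helix-loop-helix factors that marks the distal tip. All values are counts over the exons of a whole gene. *Abca3*, *Nkx2-1* and *Slc34a2* overlap genes on the opposite strand (*Gm25618* and *D330041H03Rik*, *Gm26973*, and *Gm17182*), and since the strand setting of the counting is not given, reads of those partners cannot be told apart from theirs. *Sftpb* lies on the chromosome of *Hoxa5*, 20100027 bases away.

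NKX2-1 is known to act through the promoters of surfactant genes, so the 250 bases before the start of each gene were searched on both strands for letters known from sites of lung epithelial factors. RefSeq sequences on GRCm38.p6 were at hand for 8 of the 10 genes, without *Sftpc* and *Sftpd*. The letters searched were CTCAAG and CACTTNA for NKX2-1, TGTTTAC or TGTTTGC and likewise TATTTAC or TATTTGC for FOXA factors, and AGATAA for GATA factors. CTCAAG was found in 2 of the 8 promoters, in *Sftpb* with its first base 100 and 15 bases before the start and in *Sftpa1* 166 bases before it. It occurs in 13.3% of all 32851 promoters. Both promoters are shown because they alone of the 8 hold these letters. The capitals mark CTCAAG, the *Sftpb* stretch is chr6:72304360-72304609 and the *Sftpa1* stretch chr14:41131538-41131787, both on the plus strand.
*Sftpb*: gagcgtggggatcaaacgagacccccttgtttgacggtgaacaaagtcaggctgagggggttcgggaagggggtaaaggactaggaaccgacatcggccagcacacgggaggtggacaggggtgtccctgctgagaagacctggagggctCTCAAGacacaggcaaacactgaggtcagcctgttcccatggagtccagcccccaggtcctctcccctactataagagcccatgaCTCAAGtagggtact
*Sftpa1*: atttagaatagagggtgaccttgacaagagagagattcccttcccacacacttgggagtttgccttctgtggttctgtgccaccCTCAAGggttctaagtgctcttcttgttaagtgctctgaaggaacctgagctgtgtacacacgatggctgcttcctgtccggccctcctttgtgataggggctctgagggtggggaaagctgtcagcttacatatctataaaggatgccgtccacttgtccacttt
The other matches were CACTTNA in *Sftpa1*, TGTTTAC in *Lamp3* and TGTTTGC in *Sftpb*, in 10.1%, 3.17% and 4.30% of all promoters. These matches describe letters only.

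*Hoxa5* was first read as a check of the genotype labels. In lung at E12.5, it stood at 276, 233, 288 and 304 TPM in the wt libraries and at 74.8, 67.4, 74.9 and 67.2 TPM in the *Hoxa5*-/- libraries. At E15.5, it stood at 171, 156, 144 and 170 TPM in wt and at 47.7, 47.1, 42.2 and 30.8 TPM in *Hoxa5*-/- libraries. The genotypes did not overlap at either stage. One *Hoxa5*-/- library of E15.5 lung, replicate 4, stands apart from the rest. The ribosomal RNA gene *Rn18s-rs5* made up 19.7% of its TPM and *Mir6236* 10.97%, against at most 1.80% and 2.06% in the other 31 libraries of trachea, lung and diaphragm. These 2 genes were singled out after their values had been seen. The TPM of every other gene in that library is lowered by this share, whereas the tests below rescale each library by TMM (trimmed mean of M-values). For *Sftpc*, and for the order of libraries over the 10 genes, levels at E15.5 are therefore given in TPM and in TMM-scaled CPM. The latter are counts scaled to a common library size. Sums over lists of genes are in TPM only.

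Between E12.5 and E15.5 wt lung moved from a state with little surfactant gene expression to one in which *Sftpc* was among the most abundant of all genes. *Sftpc* rose most in level, and *Slc34a2*, *Lamp3* and *Sftpb* rose by more than 10-fold and *Sftpa1* by 7.88-fold, while *Abca3*, *Lpcat1*, *Nkx2-1* and *Id2*, already present at E12.5, rose by less. With edgeR's quasi-likelihood test, Benjamini-Hochberg adjustment over all 18158 genes tested, and with 0.05 and 1.5 as the limits for the adjusted p and the fold change, 9 of 9 genes tested were called higher at E15.5. Of all genes, 15.4% were called higher and 9.15% lower. *Sftpd* had a mean TPM under 1 at both stages and was not tested. *Slc34a2* and *Lamp3* averaged under 1 TPM at E12.5 and entered the test through E15.5 alone, so that they could only come out higher. The other 7 genes averaged 1 TPM or more at both stages, and 7 of them were called higher. The median log2 fold change was 2.21 over those 7 genes and 2.98 over the 9, against -0.01 over all genes tested. The libraries of the stages did not overlap for any of the 9 genes, nor for 47.4% of all genes tested. In bulk tissue, fewer cells of a type and less RNA per cell cannot be told apart, and this holds for every difference below.

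*Sftpc* stood at 14.2, 12.4, 15.4 and 20.2 TPM in the wt libraries of E12.5 (replicates 1 to 4), and at 3669, 5087, 7607 and 2443 TPM at E15.5. Its rank among all genes of a library went from between 8009 and 9548 to between 7 and 26. Its log2 fold change was 8.22 ± 0.40 (SE, n = 4 per stage, edgeR adjusted p = 6.25e-07). Every E15.5 library thus lay far above every E12.5 library, and E15.5 libraries differed 3.11-fold among themselves.

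*Sftpb* stood at 13.3, 10.4, 15.6 and 11.8 TPM at E12.5 and at 235, 387, 736 and 170 TPM at E15.5, with a log2 fold change of 4.87 ± 0.46 (SE, edgeR adjusted p = 1.70e-05). At E12.5 its libraries overlapped those of *Sftpc* in TPM, whereas at E15.5 its mean of 382 ± 253 TPM (SD, n = 4) was far below the 4701 ± 2218 TPM of *Sftpc*. *Sftpa1* went from 2.81, 2.84, 4.74 and 3.53 TPM to 16.8, 27.9, 54.0 and 12.9 TPM, a log2 fold change of 2.98 ± 0.43 (SE, edgeR adjusted p = 0.000282). No library of one stage overlapped the other for either gene. *Sftpd* was at 0.0455 TPM (1 read) in wt replicate 1 and at 0 counts in all 7 other E12.5 lung libraries, where a count of 0 still allows 3 counts per library. At E15.5 it reached 0.139, 0.155, 1.98 and 0 TPM in wt. *Sftpd* was thus the one gene of the 10 near 0 in lung at both stages.

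Of the lamellar body and type 2 genes, *Slc34a2* was at 0.0439, 0.0400, 0 and 0.0827 TPM in wt at E12.5, 7 reads over 4 libraries, and at 13.5, 31.5, 127 and 6.94 TPM at E15.5. Its log2 fold change of 9.95 ± 1.43 (SE, edgeR adjusted p = 0.000262) rests on those few reads at E12.5. *Lamp3* went from 0.393, 0.269, 1.06 and 0.0824 TPM to 21.5, 37.0, 78.0 and 12.4 TPM, a log2 fold change of 6.35 ± 0.73 (SE, edgeR adjusted p = 6.30e-05). Both genes thus went from near 0 to clear expression in every library, but spread widely at E15.5, with an 18.2-fold range for *Slc34a2* and a 6.28-fold range for *Lamp3*. Without wt replicate 3 of E15.5 the log2 fold changes were 8.60 ± 0.75 and 5.70 ± 0.51, both called. *Abca3* was at 13.6, 11.4, 14.5 and 14.6 TPM at E12.5 and at 51.3, 66.9, 97.8 and 40.7 TPM at E15.5 (log2 fold change 2.21 ± 0.23 SE, edgeR adjusted p = 3.73e-05). *Lpcat1* was at 83.3, 80.8, 87.7 and 84.9 TPM and then at 153, 180, 217 and 141 TPM (log2 fold change 1.002 ± 0.12 SE, edgeR adjusted p = 6.32e-05). The stages did not overlap for either gene.

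The regulators moved less. *Nkx2-1* was at 181, 192, 214 and 196 TPM in wt at E12.5 and at 460, 470, 564 and 403 TPM at E15.5, a log2 fold change of 1.24 ± 0.09 (SE, edgeR adjusted p = 4.39e-06). *Id2* was at 173, 139, 141 and 139 TPM and then at 212, 239, 256 and 223 TPM, a log2 fold change of 0.62 ± 0.09 (SE, edgeR adjusted p = 0.000261). Stages did not overlap for either gene, although *Id2* only just passed the fold limit, with a fold change of 1.53. It fell under the limit without wt replicate 3 or 4 of E12.5 (log2 fold change 0.58 for each) or without wt replicate 3 of E15.5 (0.57).

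Epithelial genes in general were also higher at E15.5. Of 17 genes expressed throughout epithelia, 15 were called higher and 0 lower, with a median log2 fold change of 0.99, and *Epcam*, an adhesion molecule of epithelial cells, rose by 0.98 on the log2 scale. Scaled to the summed counts of those 17 genes, which lowers the values of all genes together, the median over all genes in wt lay at -1.15, with 4.33% of all genes called higher and 78.4% lower, and 6 of 9 genes were still called higher. These were *Sftpc* (7.004 ± 0.27 SE), *Slc34a2* (8.65 ± 0.97), *Lamp3* (5.10 ± 0.51), *Sftpb* (3.63 ± 0.29), *Sftpa1* (1.75 ± 0.28) and *Abca3* (1.02 ± 0.16). *Nkx2-1* was then at 0.08 ± 0.11 (edgeR adjusted p = 0.483) and *Lpcat1* at -0.17 ± 0.11 (adjusted p = 0.163), while *Id2* was at -0.54 ± 0.13 (adjusted p = 0.000971), under the fold limit. These 3 values lay above the median of all genes on that scale, by 1.24, 0.99 and 0.61. Setting them against that median takes the shared shift out again, so this nearly restates the unscaled fit. It does not show a rise relative to the epithelial genes.

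**Figure D1:**
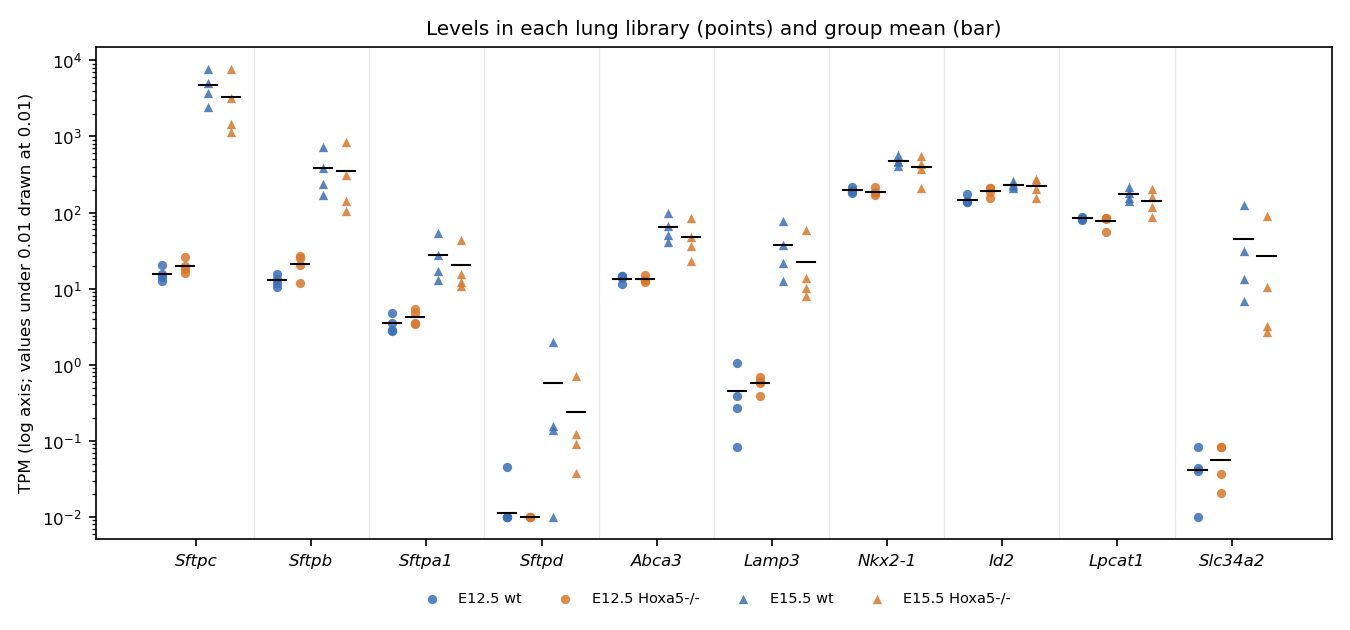
TPM of the 10 genes (log axis, values under 0.01 drawn at 0.01) in each of the 16 lung libraries, circles for E12.5 and triangles for E15.5, blue for wt and orange for Hoxa5-/-, with the group mean as a bar. Sftpc in wt lies between 12.4 and 20.2 TPM at E12.5 and between 2443 and 7607 TPM at E15.5, and wt and Hoxa5-/- points overlap for every gene at both stages.

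In *Hoxa5*-/- lung, 8 of 9 genes tested were called higher at E15.5 than at E12.5, where 12.7% of all 18207 genes were and 7.24% were lower, and the count was also 8 without *Hoxa5*-/- replicate 4 of E15.5. Here too *Slc34a2* and *Lamp3* entered the test through E15.5 alone, and of the other 7 genes 6 were called higher. *Sftpc* went from 16.2, 19.9, 18.1 and 25.7 TPM to 3163, 1460, 7597 and 1144 TPM, a log2 fold change of 7.40 ± 0.59 (SE, edgeR adjusted p = 1.48e-05). *Sftpb* went from 26.6, 25.2, 20.5 and 11.9 TPM to 309, 142, 847 and 104 TPM, a log2 fold change of 4.02 ± 0.60 (SE, edgeR adjusted p = 0.000569). The stages did not overlap for either gene. Without *Hoxa5*-/- replicate 3 of E15.5, *Sftpc* was at 6.67 ± 0.29 and *Sftpb* at 3.17 ± 0.34, *Lamp3* went from 5.38 to 4.36 ± 0.23 and *Slc34a2* from 9.06 to 6.83 ± 0.63, and 8 genes were again called. *Id2* was not called, at 208, 185, 212 and 155 TPM at E12.5 and 258, 205, 275 and 155 TPM at E15.5 (log2 fold change 0.26 ± 0.14 SE, edgeR adjusted p = 0.160). In TPM, the stages did not overlap for 7 of 9 genes, all but *Id2* and *Nkx2-1*, and for 22.6% of all genes tested. This scale is lowered in replicate 4 of E15.5 by its ribosomal RNA. The overlap of *Nkx2-1* came from that library alone, at 212 TPM against up to 215 TPM at E12.5. In TMM-scaled CPM, scaled within each stage, it was at 225 there against at most 160 at E12.5. The median was 1.86 over the 7 genes that averaged 1 TPM or more at both stages and 2.28 over the 9, against -0.01 over all genes. Scaled to the 17 epithelial genes, the median over all genes was -1.11, with 3.38% of all genes called higher and 77% lower. On that scale 6 of 9 genes were called higher, and *Id2*, called lower like most genes (-0.85 ± 0.18 SE), lay 0.26 above that median, which restates its unscaled value.

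The rise between stages was then compared between genotypes by the interaction of stage and genotype. Each of the 9 genes rose by less in *Hoxa5*-/- than in wt lung in the fitted values, from -0.07 ± 0.22 (SE) for *Lpcat1* to -0.94 ± 1.19 for *Lamp3*, with -0.82 ± 0.65 for *Sftpc* and -0.88 ± 4.47 for *Slc34a2*. The 9 differences were not independent, as most of these genes shared an order of E15.5 libraries, described below. None of these differences was called by edgeR (0 of 9, with 0.0267% of 18733 genes called, 0 at an unadjusted p under 0.05 and 0 by DESeq2, which called 0.0961%). At that unadjusted p lay 5.25% of all genes. Without *Hoxa5*-/- replicate 3 of E15.5 the difference was -1.54 ± 0.46 for *Sftpc* (edgeR adjusted p = 0.430), -1.70 ± 0.59 for *Sftpb* and -1.96 ± 0.92 for *Lamp3*, with 6 of 9 genes at an unadjusted p under 0.05 (8.32% of all genes) and 0 called. Without wt replicate 3 of E15.5, *Sftpc* was at -0.48 ± 0.64 and *Lpcat1* and *Slc34a2* turned, to 0.0546 ± 0.21 and 0.47 ± 3.75.

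**Figure D2:**
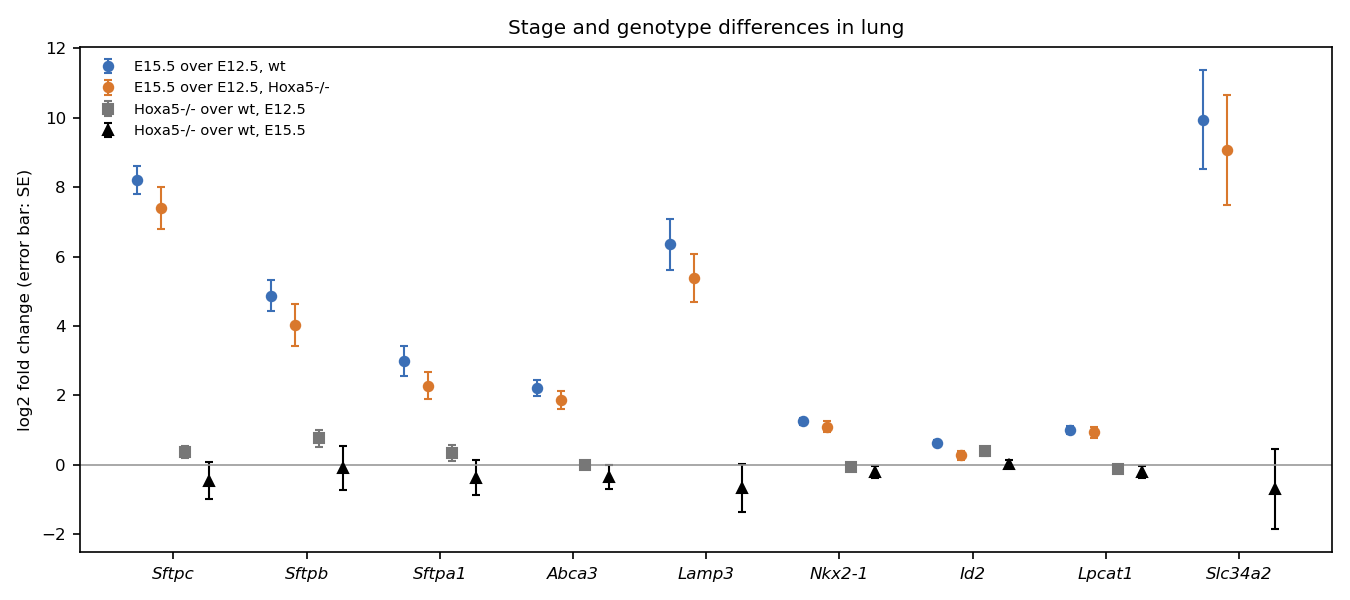
Fitted log2 fold changes with their standard errors for 9 genes, between stages in wt (blue circles) and in Hoxa5-/- lung (orange circles) and between genotypes at E12.5 (grey squares) and E15.5 (black triangles). Stage differences reach 9.95 for Slc34a2 in wt, whereas genotype differences lie between -0.72 and 0.75; Lamp3 and Slc34a2 were not tested between genotypes at E12.5.

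The question of the study was what the loss of *Hoxa5* changes in each tissue. In lung at E12.5, 0 of 7 genes tested were called between the genotypes with edgeR, where 0.0798% of all 17548 genes were. At an unadjusted p under 0.05 (8.01% of all genes) there were 2, *Sftpb* and *Id2*, and DESeq2 called 0 (0.462% of all genes). *Sftpb* was higher in 3 of 4 *Hoxa5*-/- libraries than in any wt library and level with wt in the fourth (26.6, 25.2, 20.5 and 11.9 TPM against 13.3, 10.4, 15.6 and 11.8 TPM in wt), a log2 fold change of 0.75 ± 0.24 (SE, edgeR adjusted p = 0.450). *Id2* showed 0.38 ± 0.13 (SE, edgeR adjusted p = 0.477), and 3 of its 4 *Hoxa5*-/- libraries lay above the highest wt library, at 173 TPM. *Sftpc* showed 0.36 ± 0.17 (adjusted p = 0.633), *Sftpa1* 0.32 ± 0.23, *Abca3* 0.00 ± 0.09, *Nkx2-1* -0.06 ± 0.07 and *Lpcat1* -0.13 ± 0.09. *Sftpd*, *Lamp3* and *Slc34a2* were under 1 TPM on average in both genotypes. Groups overlapped for all 7 genes tested, and 4.09% of all genes tested did not overlap.

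At E15.5, 0 of 9 genes tested were called with edgeR (0.124% of all 17777 genes were), 0 had an unadjusted p under 0.05 (6.32% of all genes had) and DESeq2 called 0 (0.467% of all genes). *Sftpc* in TMM-scaled CPM was 981, 1374, 2031 and 652 in wt and 836, 381, 1990 and 441 in *Hoxa5*-/- libraries, a log2 fold change of -0.47 ± 0.53 (SE, edgeR adjusted p = 0.939). *Slc34a2* showed -0.72 ± 1.16, *Lamp3* -0.67 ± 0.68, *Sftpa1* -0.38 ± 0.51, *Abca3* -0.36 ± 0.34, *Lpcat1* -0.21 ± 0.18, *Nkx2-1* -0.21 ± 0.17, *Sftpb* -0.10 ± 0.62 and *Id2* 0.02 ± 0.10. The fitted value was below 0 for 8 of the 9 genes, with a median of -0.36 against -0.01 over all genes tested, but the genotypes overlapped for all 9 (2.96% of all genes tested did not overlap). Without *Hoxa5*-/- replicate 4, the library rich in ribosomal RNA, *Sftpc* was at -0.23, *Lamp3* at -0.45 and *Sftpb* at 0.16, and 0 of the 9 genes were called. Without wt replicate 3, *Sftpc* was at -0.12 ± 0.54 and *Sftpb* at 0.44 ± 0.60, and without *Hoxa5*-/- replicate 3 they were at -1.19 ± 0.39 (edgeR adjusted p = 0.324) and -0.95 ± 0.48 (adjusted p = 0.468), so that the size, and for *Sftpb* the direction, turned on those libraries. Without *Hoxa5*-/- replicate 3, 7 of 9 genes had an unadjusted p under 0.05 (11.8% of all genes had) and 0 were called.

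**Figure D3:**
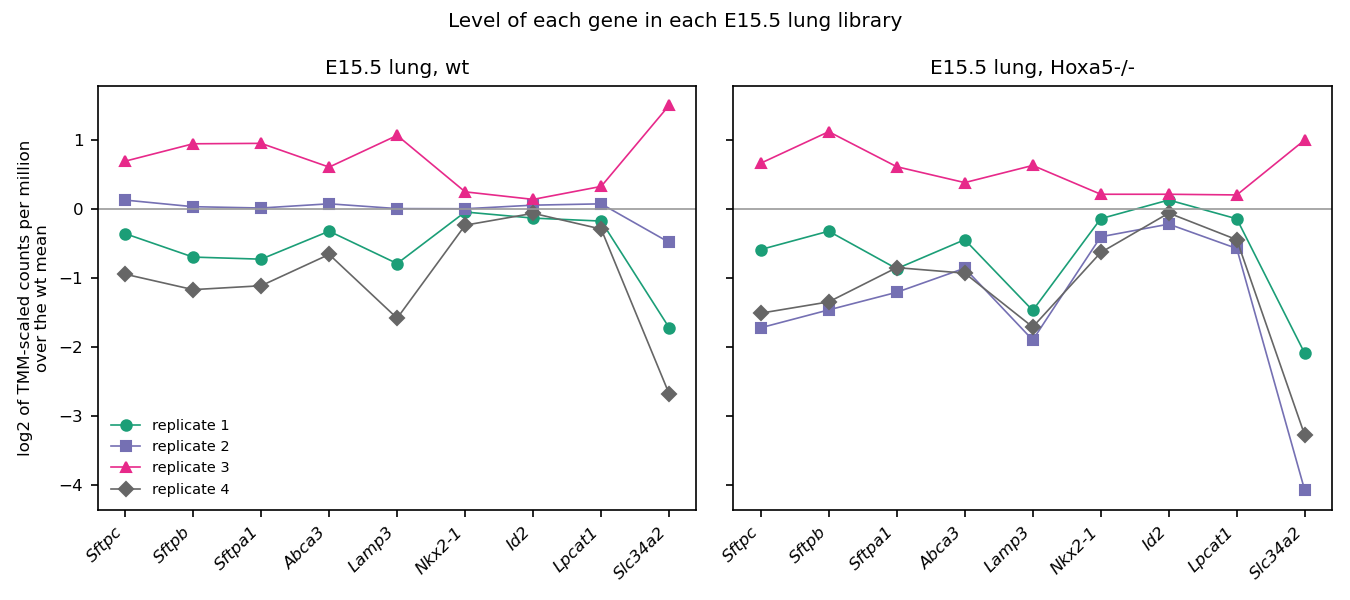
Log2 of TMM-scaled CPM over the wt mean for 9 genes in each E15.5 lung library, wt on the left and Hoxa5-/- on the right, with 1 line and colour per replicate number. Replicate 3 is the highest library for 9 of 9 genes in both genotypes, and the range is widest for Slc34a2 and narrowest for Id2.

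Within each genotype, the E15.5 lung libraries differed from each other in a shared order. Replicate 3 was the highest of its group for 9 of 9 genes in wt and for 9 of 9 in *Hoxa5*-/-, in TPM as in TMM-scaled counts. In wt, the order from replicate 3 through 2 and 1 down to 4 was the same for 8 of 9 genes on both scales, all but *Id2*. In *Hoxa5*-/- libraries the order of *Sftpc* was replicates 3, 1, 2 and 4 in TPM, shared by 8 of 9 genes, but 3, 1, 4 and 2 in TMM-scaled counts, shared by 6 of 9. At E12.5, no such order was seen, since at most 2 of 9 genes (*Sftpc* included) shared that of *Sftpc*. Beside this, the summed TPM of 10 alveolar type 1 genes at E15.5 was 411, 537, 957 and 329 in wt and 382, 266, 795 and 196 in *Hoxa5*-/- libraries, and that of 9 proximal airway genes 161, 277, 525 and 128, and 157, 87.3, 437 and 74.5. The 17 epithelial genes summed to 2531, 2717, 3415 and 2506 TPM in wt and to 2691, 2356, 3273 and 1485 TPM in *Hoxa5*-/- libraries. All 3 lists followed the order of *Sftpc* in TPM in both genotypes. These sums and those below are in TPM only, where *Hoxa5*-/- replicate 4 is lowered by its ribosomal RNA. The low place of replicate 4 may therefore rest on that scale. The 7 endothelial genes (1148 and 886 TPM) and the 6 macrophage genes (160 and 170.04 TPM) were also highest in replicate 3 of wt and of *Hoxa5*-/-, but ranged less, from 936 TPM in wt and 520 in *Hoxa5*-/- for endothelial genes and from 146 and 106 TPM for macrophage genes. Hepatocyte genes (5) summed to 448 TPM in *Hoxa5*-/- replicate 3 (*Alb* 283), against at most 9.62 TPM in the other *Hoxa5*-/- libraries and 42.1 TPM in wt. The 11 distal tip genes were at 1156, 1158, 1092 and 1119 TPM in wt and at 1281, 1212, 1236 and 732 TPM in *Hoxa5*-/- libraries, and were not highest there. The part of these other genes in the order was not tested. Without both libraries numbered 3, an alternative chosen after seeing the data, *Sftpc* was at -0.85 ± 0.31 (SE, edgeR adjusted p = 0.395), *Lamp3* at -1.03 ± 0.32 (adjusted p = 0.303) and *Slc34a2* at -1.55 ± 0.58 (adjusted p = 0.395), with 0 of the 9 genes called.

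Other genes of the surfactant system were read from lists, with genes named by a fixed rule. Between stages in wt, 15.4% of all genes were called higher and 9.15% lower, which each list count below is set beside. A list gene that averaged under 1 TPM in a compared group entered the test through the other alone, which fixed its direction. Such genes were not counted apart in the lists, here or for the tissues below. Of 8 genes for surfactant processing and lamellar bodies, 7 were tested between stages in wt and 5 were called higher and 0 lower, with a median log2 fold change of 1.22. These were *Napsa* and *Ctsh*, proteases that mature SP-B and SP-C (5.50 ± 0.82 and 4.91 ± 0.40 SE), *Lgi3* (3.11 ± 0.20), *Rab27a*, a GTPase of secretory organelles (1.22 ± 0.19), and *Adgrf5*, the receptor that limits the alveolar surfactant pool (1.18 ± 0.20). *Ctsh* went from a mean of 3.69 to 114 TPM. Of 8 later type 2 genes, 7 were tested and 6 were called higher (median 3.12), among them *Muc1*, a membrane mucin (3.84 ± 0.28), and *Cldn18*, a tight junction protein of alveolar cells (3.29 ± 0.20).

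By contrast, few of the genes for making surfactant lipid were called between stages. Of 20, all tested, 1 was called higher and 3 lower in wt, with a median of -0.26, where 15.4% of all genes were called higher and 9.15% lower. *Chpt1*, which catalyses the last step of phosphatidylcholine synthesis, rose by 0.79 on the log2 scale. The desaturase gene *Scd1* (-1.51 ± 0.19 SE), the elongase gene *Elovl6* (-1.18 ± 0.16) and the fatty acid carrier gene *Fabp5* (-0.77 ± 0.08) fell. *Scd2*, the most abundant of the list, was at a mean of 978 TPM at E12.5 and 728 TPM at E15.5, under the fold limit.

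Alveolar type 1 genes, of the flat cells that line the alveoli, moved with the surfactant genes, with 8 of 10 called higher and 1 lower in wt (median 2.96). *Ager*, a receptor abundant on type 1 cells, went from a mean of 24.7 to 189 TPM (2.89 ± 0.35 SE). Of 11 lung epithelial transcription factors, 5 were called higher and 1 lower (median 0.56). *Elf5* (4.28 ± 0.37), *Klf5* (3.51 ± 0.34) and *Cebpa* (2.81 ± 0.32), factors of maturing epithelium, rose, and *Foxp4* fell (-0.94 ± 0.09). Distal tip genes were mixed, with 4 of 11 higher and 2 lower (median 0.40). *Clu* rose most (2.69 ± 0.08), the FGF target *Etv5* at 0.51 ± 0.11 stayed under the fold limit, and *Mycn*, a driver of tip cell proliferation, fell (-0.77 ± 0.12).

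Of other lung cells, 6 of 7 endothelial genes and 3 of 8 mesenchymal genes were called higher and 0 lower between stages in wt, where 15.4% of all genes were called higher and 9.15% lower. Of the proximal airway genes, 5 of 6 tested were higher, of 4 mesothelial genes 1 was higher and 3 were lower, and of 6 macrophage genes 1 was higher (*C1qa*, a complement subunit, at 0.93) and 0 were lower. At E12.5 *Sox2* alone made up 17.3 of the 21.6 TPM of the proximal airway genes in wt replicate 1, so the others of that list started low. In *Hoxa5*-/- lung the counts between stages were 5 of 7 for processing and lamellar body genes, 6 of 7 for later type 2 genes and 8 of 10 for type 1 genes called higher. Of all genes there, 12.7% were called higher and 7.24% lower. Between genotypes no gene of any of the 16 lists was called in lung at either stage. All 7 endothelial genes had a fitted value below 0 at E15.5 (median -0.38), 6 of them at an unadjusted p under 0.05 (6.32% of all genes were), among them *Cdh5* (-0.41 ± 0.07 SE, edgeR adjusted p = 0.105) and *Cldn5* (-0.38 ± 0.08, adjusted p = 0.178).

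**Figure D4:**
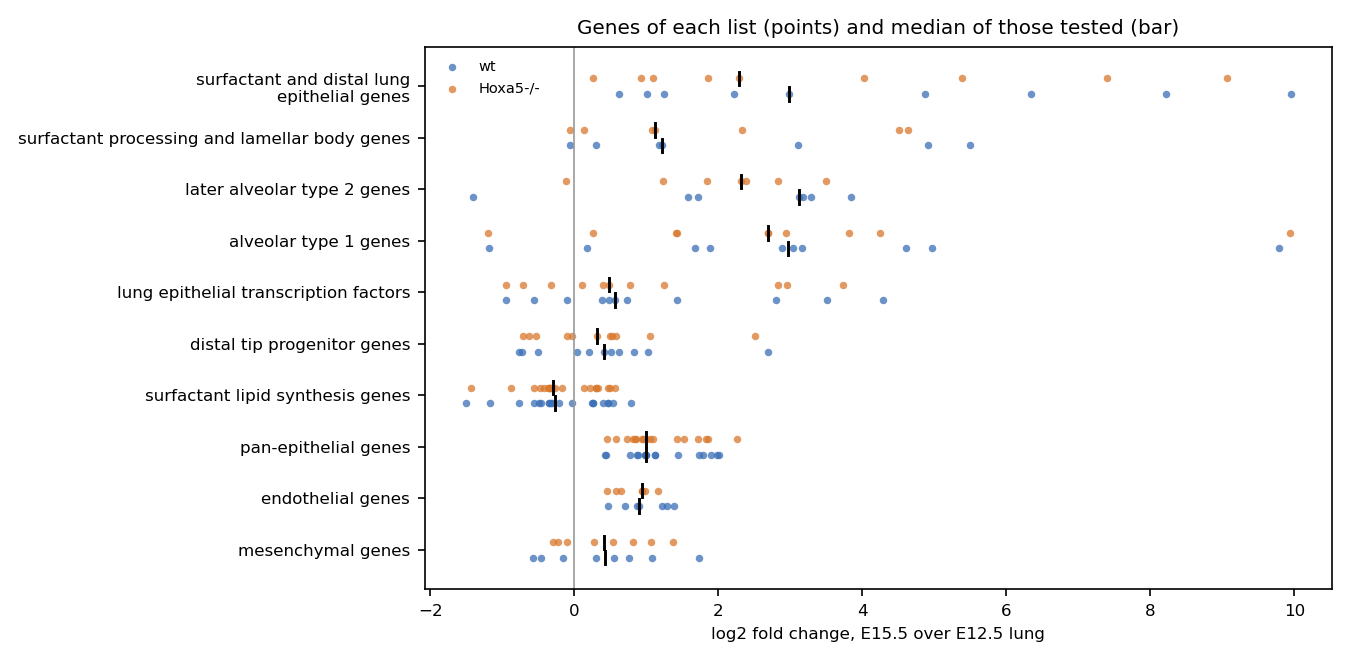
Log2 fold change from E12.5 to E15.5 lung of each tested gene of 10 lists in wt (blue) and Hoxa5-/- (orange), with the median as a bar. The median in wt is 2.98 for the surfactant and distal lung epithelial genes, 3.12 for later alveolar type 2 genes and -0.26 for surfactant lipid synthesis genes. The first is 2.21 over the 7 genes that averaged 1 TPM or more at both stages, without Lamp3 and Slc34a2.

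Across the 7 combinations of tissue and stage, 9 of the 10 genes had their highest mean in E15.5 lung in both genotypes, all but *Sftpd*, which was highest in trachea. Its trachea means rested on replicate 3, at 6.72 TPM in wt and 3.20 TPM in *Hoxa5*-/-. The other trachea libraries held at most 1.11 TPM in wt and 0.654 TPM in *Hoxa5*-/-. In wt, *Nkx2-1* followed the order E15.5 lung (474 ± 66.6 TPM, SD, n = 4), E12.5 lung (196 ± 13.8) and trachea (112 ± 26.9), with no overlap between neighbours. It was at 1.41 ± 0.79 TPM in E12.5 somites and at 0 in iBAT. *Id2*, *Lpcat1* and *Abca3* were expressed everywhere. *Id2* was at 233 ± 19.3 TPM in E15.5 lung, at 166 ± 15.1 in E10.5 somites and at 148 in both trachea and E12.5 lung, the last 3 overlapping, and was lowest in diaphragm (39.2 ± 13.1) and iBAT (32.8 ± 5.16, n = 5). *Lpcat1* was at 173 ± 33.6 TPM in E15.5 lung, between 47.5 and 84.2 TPM in the other tissues but iBAT, and at 5.31 ± 0.68 in iBAT. *Abca3* in E15.5 lung (64.2 ± 24.9) overlapped trachea (36.7 ± 8.68), and lay lowest in iBAT (9.36 ± 1.12). The surfactant proteins, *Lamp3* and *Slc34a2* had a mean of at most 2.02 TPM in wt somites and iBAT.

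**Figure D5:**
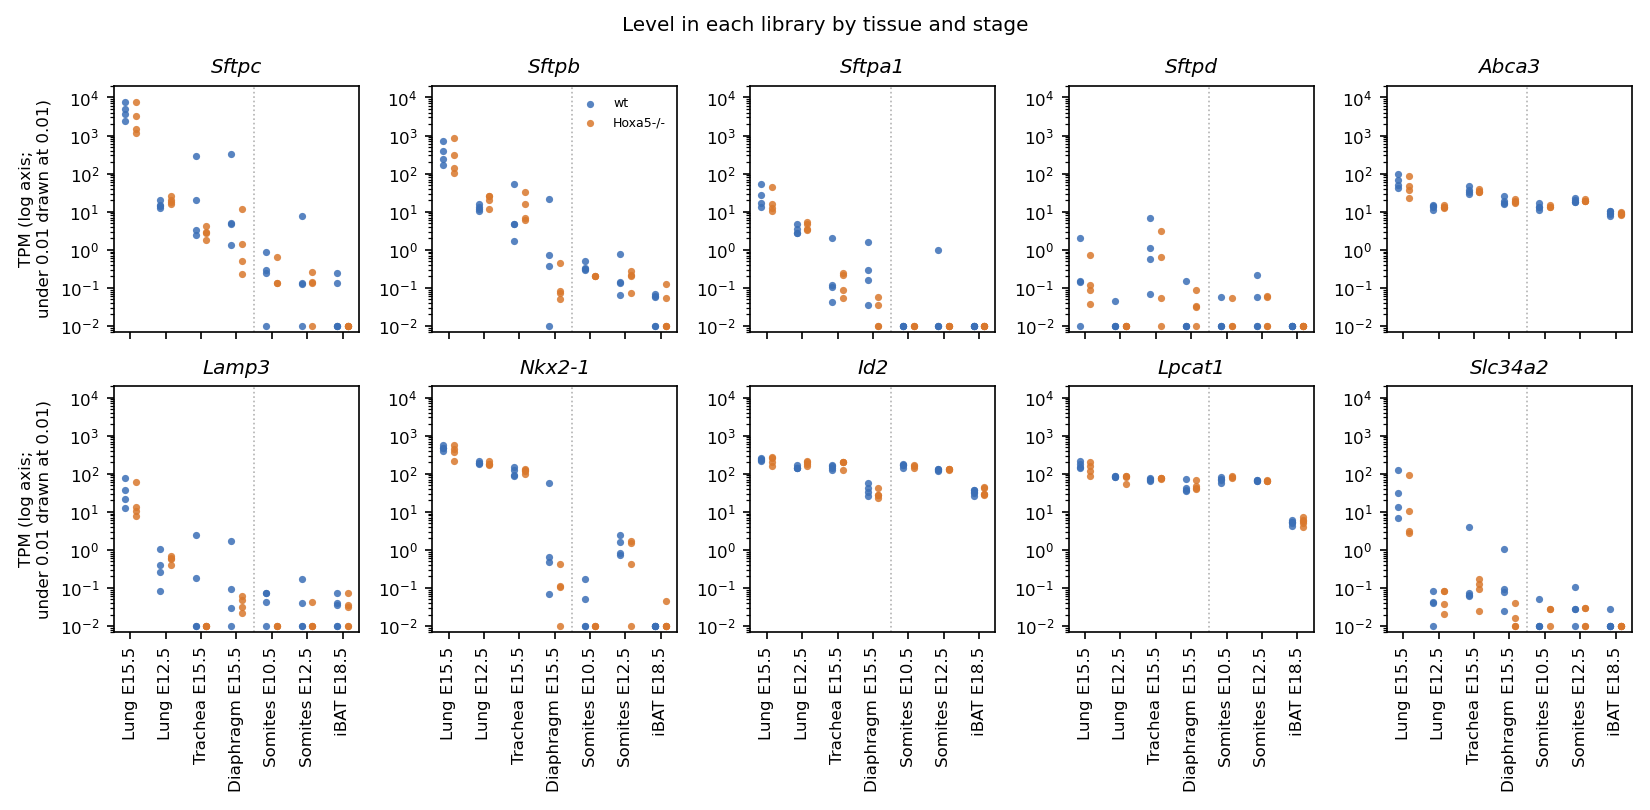
TPM of each gene (log axis, values under 0.01 drawn at 0.01) in every library by tissue and stage, blue for wt and orange for Hoxa5-/-, with a dotted line between the sets of the 2 sequencing centres. Sftpc is at 288 TPM in 1 wt trachea library and at 322 TPM in 1 wt diaphragm library, against at most 19.98 and 11.8 TPM in the other libraries of those tissues.

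In wt at E15.5, lung was set against trachea, which shares its endodermal origin. With edgeR, 9 of 10 genes were called higher in lung, where 10.1% of all 19340 genes were and 20.1% were lower. *Lamp3* and *Sftpa1* entered the test through lung alone and *Sftpd* through trachea alone, and of the other 7 genes 7 were called higher. *Sftpc* was at 19.98, 2.47, 288 and 3.24 TPM in trachea, so that the 4 libraries spread over 2 orders of magnitude but all lay under lung (5.91 ± 1.41 SE, edgeR adjusted p = 0.00716). *Sftpb* (4.55 ± 1.003), *Sftpa1* (5.43 ± 0.94), *Lamp3* (5.66 ± 1.09) and *Slc34a2* (5.28 ± 1.33) were also higher, as were *Nkx2-1* (2.11 ± 0.17), *Lpcat1* (1.34 ± 0.13) and *Id2* (0.68 ± 0.10). *Abca3* (0.84 ± 0.27, adjusted p = 0.0266) overlapped between the tissues and lost its call when any of 5 of the 8 libraries was left out. *Sftpd* was at 0.570, 1.11, 6.72 and 0.0694 TPM in trachea and had a log2 fold change of -1.97 ± 1.28 (adjusted p = 0.229). Without lung wt replicate 3 it was called lower in lung (-4.26 ± 1.44, adjusted p = 0.0371), opposite to the other 9 genes. Since *Sftpd* entered through trachea alone, it could only come out lower in lung. It averaged under 1 TPM without trachea wt replicate 3 and was then not tested. The size of the larger differences turned on single libraries. Without lung wt replicate 3, *Slc34a2* was at 3.98 ± 1.23 and *Lamp3* at 5.03 ± 1.08. Without trachea wt replicate 3, *Sftpc* was at 9.16 ± 0.83, *Sftpb* at 6.67 ± 0.67, *Sftpa1* at 8.30 ± 0.82, *Lamp3* at 9.25 ± 1.12 and *Slc34a2* at 9.33 ± 1.63, each still called higher in lung. Of the 17 epithelial genes, 1 was called higher and 3 lower in lung, and of 9 proximal airway genes 0 were higher and 8 lower. Distal tip genes were called higher in lung for 7 of 11 (*Etv5* 3.02 ± 0.12), and lipid synthesis genes for 0 of 20. Against diaphragm, 9 of 9 genes tested were called higher in lung (15.6% of all 18984 genes were, and 20.9% were lower), as were 17 of the 17 epithelial genes. *Lamp3*, *Sftpa1* and *Slc34a2* entered that test through lung alone, and of the other 6 genes 6 were called higher. *Sftpc* was at 5.56 and *Nkx2-1* at 4.76 there, and at 10.03 ± 0.61 and 9.97 ± 0.31 without diaphragm wt replicate 3.

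Single libraries outside lung held several of these genes together. In wt trachea replicate 3, *Sftpc* at 288 TPM, *Sftpb* at 52.7, *Sftpa1* at 2.03, *Lamp3* at 2.41 and *Slc34a2* at 3.94 TPM were each the highest of trachea, and they came to 3.79%, 7.16%, 3.75%, 3.08% and 3.11% of the wt lung library with the same number. *Sftpd*, at 6.72 TPM the highest of wt trachea, instead lay above that lung library. The same trachea library also held 427 TPM summed over 6 thyroid follicular genes, of which *Tg* made up 350, against at most 4.37 TPM in any other trachea library, and 11557 TPM over 9 proximal airway genes (*Scgb3a2* 8999), against 1590 to 3944 TPM in the other wt and 1425 to 7439 TPM in the *Hoxa5*-/- trachea libraries. In wt diaphragm replicate 3, *Sftpc* at 322 TPM, *Sftpb* at 21.1, *Sftpa1* at 1.63, *Lamp3* at 1.76 and *Slc34a2* at 1.03 TPM came to 4.23%, 2.87%, 3.01%, 2.26% and 0.812% of that lung library, and *Nkx2-1* at 57.1 TPM to 10.1%. *Nkx2-1* was at most 0.642 TPM in the other 7 diaphragm libraries. Thyroid genes there summed to 2.87 TPM, 5 hepatocyte genes to 8554 TPM (*Alb* 4566), against 10553 and 9065 TPM in *Hoxa5*-/- replicates 3 and 4, and the 17 epithelial genes to 480 TPM, against at most 270 in the other diaphragm libraries. Whether tissue of neighbouring organs was taken with these samples was not tested.

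In trachea, 0 of 8 genes tested were called with edgeR (0.0156% of all 19220 genes were), 1 had an unadjusted p under 0.05 (6.7% of all genes had) and DESeq2 called 0 (0.271% of all genes). *Sftpc* was at 2.75, 1.85, 4.21 and 2.91 TPM in the mutant. The fitted log2 value was -4.76 ± 1.53 (SE, edgeR adjusted p = 0.682), and -1.52 ± 0.71 (adjusted p = 0.721) without wt replicate 3. *Sftpb* was at 4.77, 4.63, 52.7 and 1.74 TPM in wt and 16.1, 5.98, 32.03 and 6.66 TPM in *Hoxa5*-/- trachea. Its log2 fold change went from -0.10 ± 1.03 to 2.03 ± 0.68 (adjusted p = 0.599) without wt replicate 3. *Id2* (0.31, and 0.24 without it) and *Lpcat1* (0.13 and 0.11) hardly moved, and 0 genes were called either way. The difference between the genotype effects of lung and trachea was called for 0 of 10 genes with edgeR (0.00502% of all 19907 genes), for 1 at an unadjusted p under 0.05 (*Sftpc*, 4.30 ± 1.65, with 5.04% of all genes at that p, but 1.03 ± 1.06 and 0 of 9 genes without trachea wt replicate 3) and for 0 by DESeq2 (0.296% of all genes).

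In diaphragm, 0 of 6 genes tested were called (0.594% of all 18019 genes were), 3 had an unadjusted p under 0.05 (13% of all genes had) and DESeq2 called 0 (2.25% of all genes). These 3 were *Nkx2-1* (-6.46 ± 2.10 SE, edgeR adjusted p = 0.235), *Sftpb* (-5.06 ± 1.77, adjusted p = 0.268) and *Sftpc* (-4.59 ± 1.87, adjusted p = 0.351). Without wt replicate 3, *Sftpc* was at -0.12 ± 1.14, and *Nkx2-1* and *Sftpb* were under the limit of 1 TPM and could not be tested. A single fit for all 32 libraries of trachea, lung and diaphragm did call *Nkx2-1*, again with that library included. In E10.5 somites 0 of 3 genes tested and in E12.5 somites 0 of 5 were called (0.0215% of all 18573 and 0.00529% of all 18906 genes), with 0 and 1 at an unadjusted p under 0.05 (12.7% and 3.24% of all genes), and in iBAT 0 of 3 (0.00657% of all 15212 genes), with 0 (2.47%). DESeq2 called 0 in each (0.0969%, 0.0106% and 0.0263% of all genes). The 1 gene was *Sftpc* in E12.5 somites, at 0.128, 7.83, 0 and 0.132 TPM in wt and at most 0.267 TPM in *Hoxa5*-/- libraries, so that wt replicate 2 alone carried it.

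Outside the 10 genes themselves, the genes most like *Sftpc* in pattern were those with the highest Pearson correlation of log2(TPM + 1) over the 32 libraries of trachea, lung and diaphragm, where libraries of the same tissue and stage stand together and totals differ, so that r is given as a description. Among 21103 genes, these were *Tinag* (r = 0.963), *Col4a4*, *Slc26a9*, *Col4a3*, *Bcas3os1*, *Pgc*, *Gm16559*, *Ibsp*, *Adh1* and *Areg* (r = 0.936). *Adh1*, an alcohol dehydrogenase, was the most abundant, at a mean of 56.0 TPM in wt lung at E12.5 and 922 TPM at E15.5, against 35.0 and 34.3 TPM in trachea and diaphragm. *Col4a3* and *Col4a4* code for chains of basement membrane collagen, and *Slc26a9* for a chloride channel of airways. Likewise outside the 10, the genes most like *Nkx2-1* were *Sfta3-ps* (r = 0.995), a pseudogene, *Cldn6*, a tight junction protein of embryonic epithelia, *Irx2*, a transcription factor, *Gm26973*, which overlaps *Nkx2-1* on the other strand, and *Shh*, the hedgehog ligand of the lung epithelium (r = 0.985). Within the 10 genes, r with *Sftpc* was 0.951 for *Lamp3*, 0.911 for *Sftpa1* and for *Sftpb*, 0.888 for *Slc34a2*, 0.822 for *Lpcat1*, 0.647 for *Abca3*, 0.633 for *Nkx2-1*, 0.535 for *Id2* and 0.172 for *Sftpd*, while *Id2* was closest to *Nkx2-1* (r = 0.958).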

How the data were processed

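Bulk RNA-seq of 57 libraries of polyA RNA was analysed, 32 of trachea, lung and diaphragm (single-end reads of 100 bases) and 25 of somites and iBAT (paired-end reads of 150 bases). Per the submitters' processing notes, reads were trimmed with Trim Galore 0.6.5, mapped with STAR 2.7.9a to GRCm39 and counted with featureCounts 2.0.3. The deposited counts are raw whole reads per gene. TPM was deposited as well, computed by the authors. Totals ran from 18369905 to 72991481 counts. Groups and replicate numbers came from the sample labels.

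Counts of genes that averaged 1 TPM or more in a compared group were tested with edgeR 4.0.16 (quasi-likelihood, TMM) in R 4.3.3. Calls needed a Benjamini-Hochberg adjusted p under 0.05 over all genes tested and a fold change of at least 1.5, and interactions the adjusted p alone. SE is the log2 fold change over the root of F. The 10 genes, the lists and the tests were chosen with earlier results of these data known. Named were the 10 genes, *Hoxa5*, of each of 16 lists the 2 of highest TPM and up to 6 called, and genes alike in pattern. DESeq2 1.42.0, other filters and scalings, blocks and leaving out libraries were alternatives. On simulated data for E15.5 lung genotypes, 83 of 100 genes changed 2-fold and 98 of 100 changed 4-fold were called, with 5 false calls. The changed genes were drawn at random from those with ample counts, and each gene varied independently. The surfactant genes instead shared an order of libraries at E15.5, and several had wide standard errors. These rates thus do not say how often a change in them would be called. Python 3.11.15 with pandas 2.3.3 and matplotlib 3.10.9 made summaries and figures.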

Additional observations from a re-analysis of the deposited data

Results flagged for a closer look

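Single libraries far from the others of their group were looked for in 73 combinations of gene and group with Dixon's ratio, and 16 were found. The limit is set for about 1 in 20 groups of independent, normally distributed values. TPM need not follow that, and several of the 16 share a library, so no chance count is given. In trachea, wt replicate 3 was far above the other wt libraries for *Sftpc* (288 TPM), *Sftpb* (52.7 TPM), *Sftpd* (6.72 TPM) and *Slc34a2* (3.94 TPM), and *Hoxa5*-/- replicate 3 far below for *Id2* (129 TPM). In diaphragm, wt replicate 3 was far above for *Sftpc* (322 TPM), *Sftpb* (21.1 TPM) and *Nkx2-1* (57.1 TPM), and *Hoxa5*-/- replicate 1 for *Sftpc* (11.8 TPM). In E15.5 lung, *Hoxa5*-/- replicate 3 was far above for *Sftpa1* (43.5 TPM), *Lamp3* (58.8 TPM) and *Slc34a2* (91.0 TPM). In E12.5 lung, wt replicate 1 was far above for *Id2* (173 TPM) and *Hoxa5*-/- replicate 1 far below for *Lpcat1* (54.7 TPM). In E12.5 somites, wt replicate 2 was far above for *Sftpc* (7.83 TPM) and *Hoxa5*-/- replicate 4 for *Abca3* (21.8 TPM). The causes were not tested.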

How the results depend on the processing

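The counts of the 10 genes called kept within 1.5 times under the alternatives run, except that in diaphragm a single fit for all 32 libraries called 1 gene between genotypes (*Nkx2-1*, log2 fold change -6.45, edgeR adjusted p = 0.00233). That call rests on wt replicate 3, at 57.1 TPM against a median of 0.57 TPM over the wt diaphragm libraries, and *Nkx2-1* could not be tested without it. Of the 10 genes most like *Sftpc*, 6 were shared with log2(TPM + 0.1). Between stages 8 to 9 genes were called in wt and 8 in *Hoxa5*-/- lung when 1 library was left out, and 0 between genotypes in every tissue. Scaling to the 17 epithelial genes moved the median of all genes between stages to -1.15 in wt and -1.11 in *Hoxa5*-/- lung, and with it the sign of *Id2* (-0.54) and *Lpcat1* (-0.17) in wt and of *Nkx2-1* (-0.033), *Id2* (-0.85) and *Lpcat1* (-0.20) in *Hoxa5*-/- lung. All lay above that median, which restates the unscaled fit. Between genotypes the scaling turned the sign of *Abca3* (0.0756) and *Nkx2-1* (0.014) in E12.5 lung and of *Sftpb* in trachea (0.24). For the difference between lung and trachea, DESeq2 gave -0.0251 for *Sftpb* and -0.0426 for *Sftpd*. Leaving out 1 library turned the direction of values between genotypes that were not called, with ranges of -0.11 to 0.11 for *Abca3* and -0.14 to 0.32 for *Lpcat1* in diaphragm, -0.0631 to 0.0482 for *Abca3* in E12.5 lung, -0.0469 to 0.10 for *Id2*, -0.97 to 0.17 for *Sftpa1*, -0.95 to 0.44 for *Sftpb* and -2.92 to 0.65 for *Slc34a2* in E15.5 lung, -0.17 to 0.10 for *Abca3*, -0.0291 to 0.23 for *Nkx2-1* and -0.76 to 2.03 for *Sftpb* in trachea, -0.0687 to 0.0931 and -0.0639 to 0.065 for *Abca3* in E10.5 and E12.5 somites, and -0.0646 to 0.0056 for *Abca3* and -0.0116 to 0.18 for *Id2* in iBAT. For the interaction with stage the ranges were -0.25 to 0.0546 for *Lpcat1* and -3.08 to 0.47 for *Slc34a2*, and for that with tissue -1.20 to 2.20 for *Sftpa1*, -2.12 to 0.74 for *Sftpb*, -1.46 to 2.46 for *Sftpd* and -1.31 to 4.07 for *Slc34a2*. Causes were not tested.

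Replicate numbers were not taken to pair the samples, since no source says what they mark and in no tissue did every pair of the same number correlate above 0.1. In iBAT, 4 of 5 pairs did (r from 0.0727 to 0.189), 4 of 5 wt libraries correlated best with their own number, and the sample names of each pair open with a shared number whose meaning is not stated. With that number as a block, 0 of 3 genes were called in iBAT. In diaphragm 3 of 4 pairs correlated above 0.1 and 3 of 4 wt libraries best with their own number, in E15.5 lung and trachea 2 of 4 pairs and 1 of 4 libraries, and in E12.5 somites 1 of 4 pairs and 2 of 4 libraries. In E12.5 lung and E10.5 somites 0 pairs did. Replicate 3 had the highest r in E15.5 lung (0.470), trachea (0.397) and diaphragm (0.445). With the replicate number as a block, 0 of the 10 genes were called between genotypes and *Sftpb* turned in trachea (0.73) and in the interaction with tissue (-0.67). Depth limits *Sftpd*, *Lamp3* and *Slc34a2* in E12.5 lung, where a library held few or no reads of them.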
